A study of Rattus norvegicus with 9 samples.

Results

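Of the 40 listed genes of cholesterol and fatty acid synthesis, 32 had a probe on the array and are described here across 9 control rats. They were chosen by gene symbol: a probe was taken where its platform gene symbol was one of the 40, out of 22517 probes in all. Each of the 32 had exactly 1 probe. Hmgcs1, Mvk, Lss, Insig1, Fasn, Elovl1, Elovl6 and Fa2h had no probe under their symbol and are not analysed here. RNA of the cerebral cortex was measured in 6 male and 3 female Sprague-Dawley rats aged 60 days, 1 Illumina rat bead array per animal, from 250 ng of total RNA. All 9 were controls from the non-irradiated arm, in a study of cortical dysplasia in which other rats were offspring of irradiated animals; those were not analysed here. Each animal is named by its sex and a number that carries no further meaning. Sample titles also hold a number of unstated meaning, with 3 animals to each number: males 1 and 2 and female 1 carry the lowest, males 3 and 4 and female 2 the middle one, and males 5 and 6 and female 3 the highest.

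The adult brain makes its own cholesterol, because lipoproteins of the blood do not cross the blood-brain barrier, and much of that cholesterol sits in myelin. Acetyl-CoA is turned through mevalonate into farnesyl units, then into squalene, and through a series of sterol intermediates into cholesterol. The transcription factors Srebf1 and Srebf2 drive the genes of sterol and fatty acid synthesis; Scap carries them out of the endoplasmic reticulum when sterol is low, and Insig2 holds them back when sterol is high. Oligodendrocytes, which build myelin, and astrocytes, which supply lipid to neurons, are known as active sites of this synthesis.

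All values below are log2 intensities after background correction and quantile normalization, unless a difference is named. Where 3 values are listed for the females, they are those of females 1, 2 and 3 in that order. Levels of different probes cannot be compared with each other, since probes differ in how strongly they bind. Of the 32 genes, 31 lay above the 25th percentile of every array. Soat1, which esterifies cholesterol for storage, did so on 5 of 9 and is near the lower end of detection. Acaca and Abca1 were also dim, with intensities of 54 to 66 and 51 to 62 before correction, against array medians of 48 to 54. All 32 passed the filter for testing, as did 18531 probes in all. Arrays correlated with each other at 0.981 to 0.994. A set of 3 arrays was dimmer than the others before normalization: male 4, male 2 and female 2 had mean intensities of 183.6 to 185.4, and the other 6 of 212.2 to 238.8, and they are called the dim arrays below. The 8 neuronal markers were all measured, and their mean level was 10.17 to 10.41 in males and 10.42 to 10.46 in females. Markers of choroid plexus, the tissue that secretes cerebrospinal fluid, were high in male 3 (mean deviation 1.67 over 7 of 8 markers) and male 2 (0.68), and at -0.20 to 0.17 in the other animals. The labels do not say whether animals came from separate litters, so p-values measure the spread between these animals.

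The early, mevalonate part of the pathway was measured through 5 of 7 genes, and males and females overlapped for each of them. Acat2, the cytosolic thiolase that joins acetyl-CoA units, had a lowest male value of 9.39, a male median of 9.82 and a highest male value of 9.99, against 9.75, 9.84 and 9.60 in the females. Pmvk, a kinase that phosphorylates mevalonate phosphate, had 7.49, 7.60 and 7.68 at the lowest, median and highest male, against 7.49, 7.33 and 7.54 in the females. Mvd, which decarboxylates mevalonate diphosphate, had 8.09, 8.24 and 8.37 in the same order, against 7.91, 8.26 and 7.95 in the females. The low values of Acat2 came from male 6, those of Pmvk from female 2, and those of Mvd from females 1 and 3. Idi1, the isomerase that makes the reactive isoprene unit, had 7.72, 7.99 and 8.17 at the lowest, median and highest male, against 7.88, 8.05 and 7.96 in the females. Fdps, which builds farnesyl diphosphate, had 8.63, 8.74 and 8.90, against 8.51, 8.93 and 8.64 in the females. Across the 5 genes the highest animal exceeded the lowest by 1.28-fold (Pmvk) to 1.51-fold (Acat2).

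The squalene and sterol steps were measured through 8 of 9 genes. Fdft1, which joins farnesyl units into squalene, had 8.66, 8.90 and 9.10 at the lowest, median and highest male, against 8.76, 8.95 and 8.67 in the females. Sqle, the oxygenase that starts ring formation and limits the rate of later synthesis, had 8.70, 8.79 and 8.82, against 8.63, 8.73 and 8.63 in the females. Sqle was among the steadiest genes of the set, and its lowest male was male 3, with the next at 8.78. Cyp51, the demethylase of lanosterol, had 6.58, 6.74 and 6.83 in males, against 6.49, 6.85 and 6.70 in the females. Sc5d, a sterol desaturase near the end of the pathway, had 9.04, 9.16 and 9.49 in males, against 9.10, 8.85 and 9.25 in the females. Dhcr7, the reductase of the last step of one branch, had 8.10, 8.24 and 8.50 in males, against 8.02, 8.11 and 8.07 in the females. Males reached higher than any female for both Sc5d and Dhcr7, while the lowest male of each lay inside the female range. Nsdhl, Hsd17b7 and Ebp, which remove methyl groups, reduce a keto group and move a double bond of the sterol, differed by 1.14-fold to 1.21-fold between their lowest and highest animals.

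Promoter sequences of 4 sterol pathway genes are shown because these genes had the highest mean correlation over animals with the other measured mevalonate and sterol genes, among those with an entry in the sequence table (mean r of 0.22 to 0.35; covariation is described further below). Each is the 250 bases before the gene's start from RefSeq, rat build GRCr8, read along the gene's strand: Idi1 (chr17:66547525-66547774, minus strand), Acat2 (chr1:50100590-50100839, plus strand), Nsdhl (chrX:155817110-155817359, plus strand) and Cyp51 (chr4:30991443-30991692, plus strand). Capitals mark CCAAT, the box bound by NF-Y, and GGGCGG, the box bound by Sp1, on either strand, so that they read ATTGG or CCGCCC where they lie on the opposite one. Both factors are known to act together with SREBPs at sterol-regulated promoters.
Idi1: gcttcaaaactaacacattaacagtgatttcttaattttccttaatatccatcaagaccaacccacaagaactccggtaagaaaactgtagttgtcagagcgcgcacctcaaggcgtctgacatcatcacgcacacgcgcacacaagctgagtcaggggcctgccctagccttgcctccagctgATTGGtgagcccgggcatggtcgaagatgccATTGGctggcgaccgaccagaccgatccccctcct
Acat2: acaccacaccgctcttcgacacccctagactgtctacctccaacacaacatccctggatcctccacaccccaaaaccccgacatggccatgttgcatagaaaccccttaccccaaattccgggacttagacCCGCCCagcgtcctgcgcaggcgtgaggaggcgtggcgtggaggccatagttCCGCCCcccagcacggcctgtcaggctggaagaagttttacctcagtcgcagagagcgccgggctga
Nsdhl: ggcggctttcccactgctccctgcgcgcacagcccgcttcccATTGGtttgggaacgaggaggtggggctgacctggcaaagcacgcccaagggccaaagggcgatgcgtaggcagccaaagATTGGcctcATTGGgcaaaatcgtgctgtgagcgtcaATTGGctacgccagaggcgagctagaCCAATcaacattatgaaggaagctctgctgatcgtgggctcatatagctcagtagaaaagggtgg
Cyp51: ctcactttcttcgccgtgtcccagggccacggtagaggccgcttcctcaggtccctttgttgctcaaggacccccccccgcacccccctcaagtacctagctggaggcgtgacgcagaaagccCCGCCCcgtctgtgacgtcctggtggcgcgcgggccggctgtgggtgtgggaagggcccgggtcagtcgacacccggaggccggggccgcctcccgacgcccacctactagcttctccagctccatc
The Idi1 window held 2 CCAAT boxes and the Nsdhl window 5, with no GGGCGG in either, while Acat2 held 2 GGGCGG boxes and Cyp51 held 1, with no CCAAT. Windows were found for 26 of the 32 genes. Of these, 16 (61.5%) held CCAAT on either strand, against 34.3% of 27457 rat gene windows of the same length, and 20 (76.9%) held GGGCGG, against 32.4%. The E-box CACGTG was in 4 of 26 (15.4%), against 5.79%. The sterol regulatory element spelled CACCCCAC was in 1 (Ebp), against 2.24% of all windows. A longer spelling of that element, with 1 free base and overlapping the shorter one, was in 0 of 26, against 0.215%. Base composition of the windows was not matched, and a match of letters is not a binding site.

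**Figure D1:**
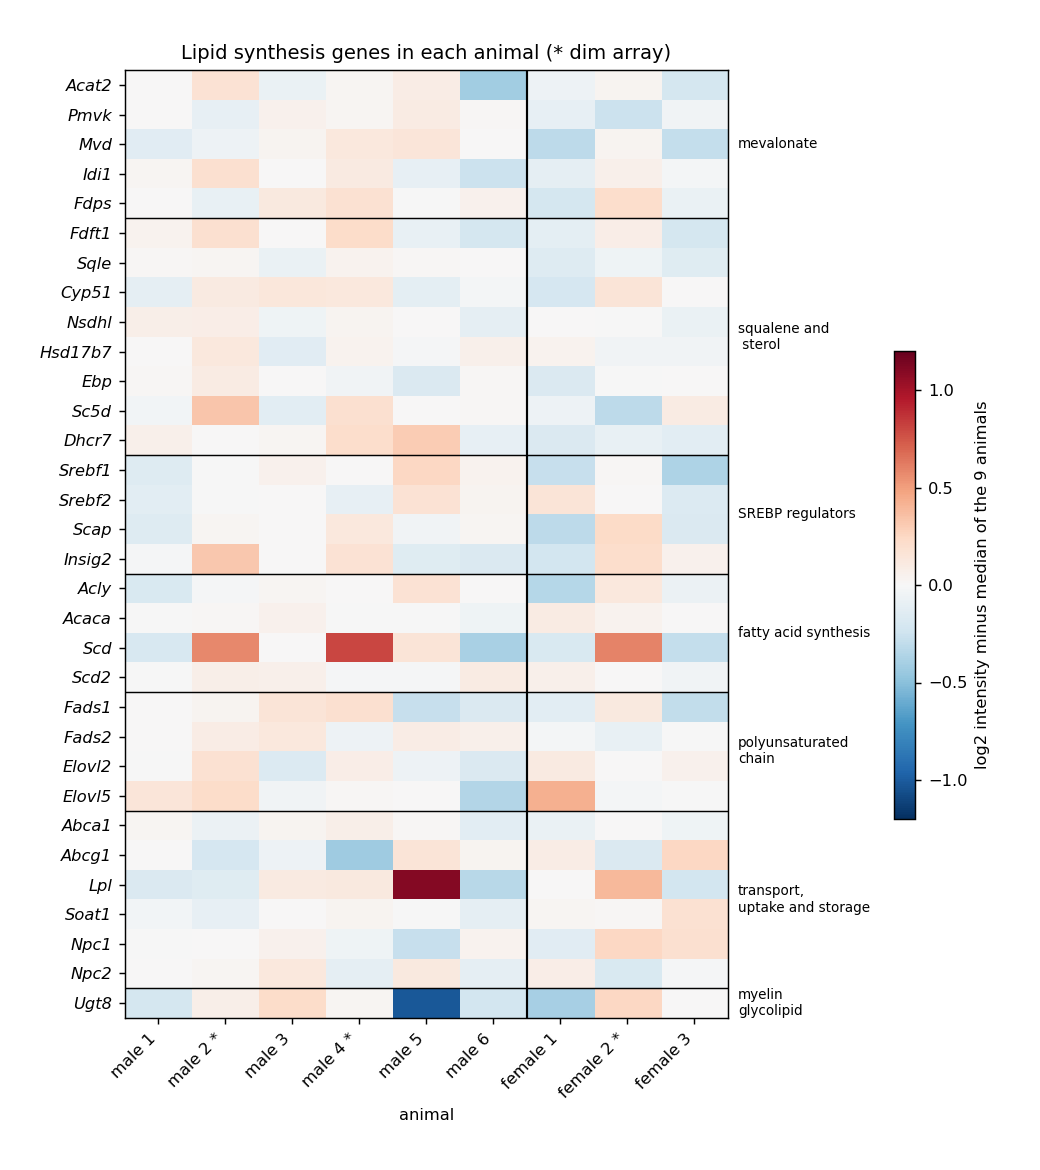
Each row is a gene and each column an animal; colour gives the log2 intensity minus the median of the 9 animals for that gene, and rows are grouped by role. Most cells are pale, and the deepest are Lpl (9.39) and Ugt8 (8.50) in male 5 and Scd in the 3 dim arrays (asterisks).

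Regulators of the pathway were measured through 4 of 5 genes. Srebf1 had 7.76, 7.94 and 8.17 at the lowest, median and highest male, against 7.64, 7.93 and 7.56 in the females. Scap had 9.61, 9.77 and 9.88 in males, against 9.45, 9.99 and 9.58 in the females. Insig2 had 9.06, 9.23 and 9.56 in males, against 9.02, 9.45 and 9.29 in the females. Female 2 was the highest female for all of these, and females 1 and 3 were the lower ones. Srebf2, the factor tied most closely to cholesterol genes, ranged over 6.38 to 6.68 in males and 6.35 to 6.66 in females.

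Fatty acid synthesis was measured through 4 of 7 genes, which ranged from the steadiest to one of the most variable of the set. Acly, which makes cytosolic acetyl-CoA from citrate, had 8.53, 8.71 and 8.89 at the lowest, median and highest male, against 8.37, 8.84 and 8.64 in the females. Acaca, the carboxylase that commits acetyl-CoA to fatty acids, had the smallest SD within sex of all 32 genes, 0.04, and ranged over 6.19 to 6.28 in males and 6.23 to 6.34 in females. Its probe was dim, and the background offset understates differences of dim probes. Scd, a desaturase that makes monounsaturated fatty acids, had 7.67, 8.13 and 8.86 at the lowest, median and highest male, against 7.87, 8.66 and 7.77 in the females. Its 3 highest animals were the 3 dim arrays, males 2 and 4 and female 2. Scd2, its close relative and the main desaturase of brain, had 12.18, 12.23 and 12.30 in males, against 12.26, 12.20 and 12.16 in the females, a span of 1.10-fold. Scd spanned 2.29-fold. Probe sequences were not used here, so binding of one relative's RNA to the other's probe was not tested.

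Desaturation and elongation of polyunsaturated chains, which supplies the long omega fatty acids of neuronal membranes, was measured through all 4 genes. Fads1 had 8.91, 9.20 and 9.38 at the lowest, median and highest male, against 9.06, 9.30 and 8.89 in the females. Fads2, the desaturase that acts before it, had 6.56, 6.69 and 6.75 in males, against 6.59, 6.53 and 6.61 in the females. Elovl5 had 6.62, 6.98 and 7.19 in males, against 7.39, 6.95 and 6.97 in the females. Elovl2, which elongates the longest chains, had 7.78, 7.92 and 8.14 in males, against 8.06, 7.96 and 8.01 in the females. Male 6 was the lowest animal for both elongases, and female 1 was the highest for Elovl5.

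Transport, uptake and storage were measured through all 6 genes. Abcg1, a transporter that moves cholesterol out of cells, had 8.87, 9.27 and 9.46 at the lowest, median and highest male, against 9.39, 9.13 and 9.55 in the females. Abca1, the exporter that loads cholesterol onto lipoproteins, had 6.12, 6.26 and 6.31 in males, against 6.17, 6.24 and 6.19 in the females. Lpl, the lipase that frees fatty acids from lipoproteins, had 7.96, 8.27 and 9.39 in males, against 8.29, 8.68 and 8.07 in the females. Lpl was the most variable of the 32 genes, and its highest value came from male 5, with the next male at 8.41. Npc1, which moves cholesterol out of lysosomes, had 6.87, 7.14 and 7.19 in males, against 7.00, 7.39 and 7.33 in the females, with its lowest value in male 5. Npc2, its partner in the lysosome, had 9.95, 10.08 and 10.19 in males, against 10.15, 9.88 and 10.05 in the females. Soat1 ranged over 5.81 to 5.95 in males and 5.93 to 6.10 in females.

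Ugt8, the enzyme that makes the galactolipid of myelin, had 8.50, 9.43 and 9.75 at the lowest, median and highest male, against 9.12, 9.77 and 9.53 in the females. The lowest value came from male 5, with the next male at 9.31. Male 5 lay 1.03 below the median of the other 8 animals for Ugt8, 1.17 above it for Lpl and 0.30 below it for Npc1. Across 4 scalings and the deposited series table, these differences were -1.09 to -0.68 for Ugt8, 1.17 to 1.38 for Lpl and -0.36 to -0.19 for Npc1. Markers of myelin and oligodendrocytes were low in the same animal: all 9 measured of 10 listed had their lowest value in male 5. The mean deviation of that list was -1.04 in male 5 and -0.16 to 0.22 in the other 8 animals, and its mean level was 8.60 to 9.86 in males and 9.52 to 9.85 in females. Mog, a surface protein of myelin, had 9.22 in male 5, where the other males lay at 10.05 to 10.53 and the females at 10.21 to 10.57. The mean deviation of the 8 meningeal fibroblast markers was also highest in male 5, at 0.39, with the others at -0.42 to 0.28, although only 4 of the 8 (Col1a1, Col1a2, Dcn and Slc22a6) had their highest value there. That of the 8 neuronal markers was lowest in male 5, at -0.18, with the others at -0.12 to 0.10. Snap25, Nefl and Nefm had their lowest value there, and the other neuronal markers did not. The array of male 5 also had the highest mean intensity before normalization, 238.8. The part of dissection or cell makeup in these values was not tested, and in bulk tissue fewer cells of a type and less RNA per cell cannot be told apart.

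**Figure D2:**
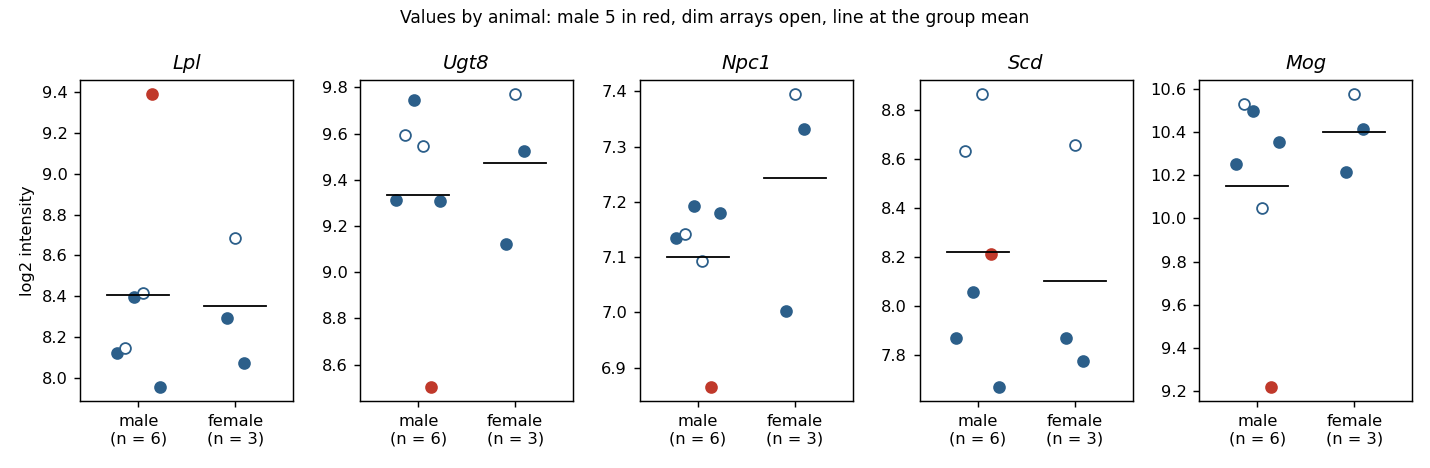
Log2 intensity of Lpl, Ugt8, Npc1, Scd and the myelin marker Mog in each animal, males left and females right, with a line at each group's mean. Male 5 (red) is the highest point for Lpl and the lowest for Ugt8, Npc1 and Mog, and the dim arrays (open circles) are the 3 highest points for Scd.

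The lipid genes varied more between animals of one sex than most probes. Their median SD within sex was 0.14, against 0.092 over all tested probes and 0.11 over the 10327 tested named genes. Lpl (0.47), Scd (0.46) and Ugt8 (0.41) lay above the 99th percentile of all tested probes, and Elovl5 (0.21), Abcg1 (0.21) and Insig2 (0.20) followed. Without male 5 the SD was 0.24 for Lpl and 0.24 for Ugt8, while that of Scd was 0.50. At the other end stood Acaca (0.04), whose probe was dim, Sqle (0.05) and Scd2 (0.05). No adjustment for signal level was made in this comparison.

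The labels set the animals apart by sex, which was compared as male minus female. None of the 32 genes passed limma's test after Benjamini-Hochberg adjustment over all 18531 probes (0 of 32; 0% of all probes), and the smallest adjusted p among them was 0.9999. At an unadjusted p under 0.001 there were also 0 of 32 (0.0054% of all probes). At an unadjusted p under 0.05 there were 5 of 32 (15.6%), against 2.37% of all probes, and all 5 were higher in males, against 1.19% of all probes higher and 1.18% lower in males at that threshold. They were 4 enzymes of the mevalonate and sterol steps and Srebf1. Genes measured in the same animals are not independent observations.

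Dhcr7 averaged 8.28 ± 0.15 in males and 8.07 ± 0.04 in females (SD, n = 6 and 3), a log2 difference of 0.22 ± 0.08 (SE; limma's unadjusted p = 0.024). Srebf1 averaged 7.95 ± 0.13 in males and 7.71 ± 0.20 in females, a difference of 0.24 ± 0.10 (limma's unadjusted p = 0.031). Mvd averaged 8.24 ± 0.11 in males and 8.04 ± 0.19 in females, a difference of 0.21 ± 0.09 (limma's unadjusted p = 0.040). These 3 had the largest differences of the 32 in size. Pmvk averaged 7.60 ± 0.06 in males and 7.45 ± 0.11 in females, a difference of 0.15 ± 0.06 (limma's unadjusted p = 0.031). Sqle averaged 8.78 ± 0.04 in males and 8.66 ± 0.06 in females, a difference of 0.12 ± 0.05 (limma's unadjusted p = 0.026). The sexes overlapped for all 5 and for every other gene of the set: 0 of 32 had all males above all females (0.669% of all probes) and 0 of 32 had all males below (0.831%). The count of 5 moved with single animals. It was 2 without female 1 (Pmvk, and Npc1 in the opposite direction), 1 without female 3, 3 without male 3 or male 5 and 6 without female 2, and without normalization between arrays it was 1. The differences themselves stayed above 0 whichever animal was left out, but their size moved. Without female 1 they were 0.20 for Dhcr7, 0.21 for Srebf1, 0.14 for Mvd, 0.16 for Pmvk and 0.10 for Sqle. In the same order they were 0.24, 0.35, 0.32, 0.09 and 0.15 without female 2, and 0.22, 0.16, 0.16, 0.19 and 0.10 without female 3. Without normalization Dhcr7 stood at 0.27 and Sqle at 0.18.

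The male average was the higher one for 24 of 32 genes (75%), against 49.7% of all tested probes, with a median difference of 0.04 over the genes and -0.00035 over all probes. It was higher for all 5 mevalonate genes and all 8 squalene and sterol genes, from 0.02 for Idi1 to 0.22 for Dhcr7. It was higher for 3 of 4 regulators, 3 of 4 fatty acid synthesis genes, 2 of 4 polyunsaturated chain genes and 3 of 6 transport genes, and lower for Ugt8 (-0.14 ± 0.24, SE), whose difference was 0.03 without male 5 and 0.01 without female 2. Some marker lists leaned with sex as well, by small margins. The mean deviation of 5 microglia markers was -0.089 to 0.22 in males and -0.11 to -0.093 in females. That of 8 neuronal markers was -0.18 to 0.05 in males and 0.06 to 0.10 in females. Neither list overlapped between the sexes, while all other marker lists did. Cx3cr1 among the microglia markers (male minus female -0.04) and Stmn2 among the neuronal ones (0.02) went against their lists. Only Aif1, a microglia marker, separated the sexes by itself within these lists. The part of these lists in the lipid gene differences was not tested. Without female 1 the count was 19 of 32, and 4 of the mevalonate and sterol genes then averaged lower in males: Idi1 (-0.03), Fdps (-0.02), Cyp51 (-0.06) and Ebp (-0.01). Among the genes lower in males, Npc1 had a difference of -0.14 ± 0.10 with all animals (limma's unadjusted p = 0.17) and of -0.26 without female 1 (limma's unadjusted p = 0.013), but of -0.07 without female 2 (0.54), -0.09 without male 5 (0.28) and -0.10 without female 3 (0.41). Lpl had a difference of 0.05 ± 0.27, which was -0.14 without male 5 and -0.08 without female 3, so its sign changed with single animals.

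**Figure D3:**
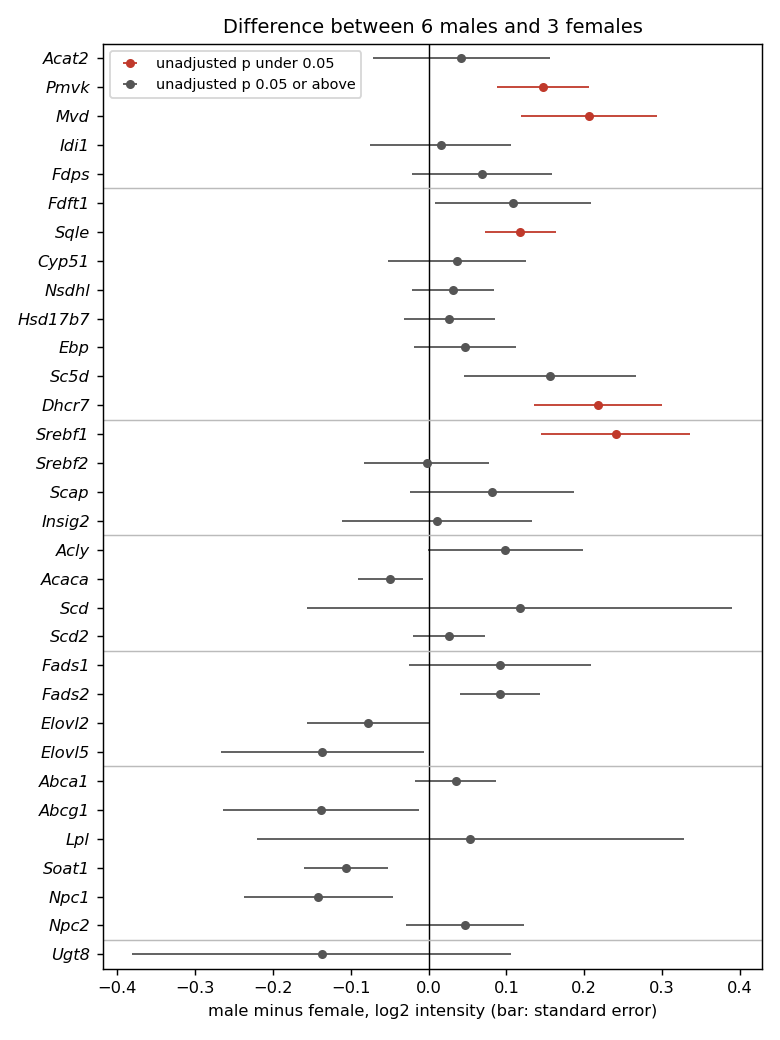
Male minus female difference of log2 intensity for each of the 32 genes, as a point with a bar of 1 standard error, 6 males against 3 females. The 5 genes in red, all right of 0, have an unadjusted limma p under 0.05, and none passes after adjustment.

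The title number was examined as a possible batch of unstated meaning, with sex as a covariate. Again 0 of 32 genes passed limma's F test after adjustment (0% of all probes), and the smallest adjusted p was 0.29, for Fads1. At an unadjusted p under 0.001 there was 1 gene, Fads1, against 0.313% of all probes, and at an unadjusted p under 0.05 there were 6 of 32 (18.8%), against 9.56%. Fads1 had 9.19, 9.22 and 9.06 in males 1 and 2 and female 1 (the lowest number), 9.34, 9.38 and 9.30 in males 3 and 4 and female 2 (the middle number), and 8.91, 9.02 and 8.89 in males 5 and 6 and female 3 (the highest number). The 3 numbers did not overlap, with means of 9.15 ± 0.08, 9.34 ± 0.04 and 8.94 ± 0.07 (SD, n = 3 each; limma's unadjusted p = 0.00016). Fdps, at 8.62 ± 0.11, 8.89 ± 0.05 and 8.71 ± 0.07 in the same order, was highest in the 3 animals of the middle number (limma's unadjusted p = 0.0072). Elovl5, at 7.23 ± 0.15, 6.95 ± 0.03 and 6.85 ± 0.20, was highest in the 3 animals of the lowest number (limma's unadjusted p = 0.0089). Abcg1 (limma's unadjusted p = 0.017), Fdft1 (0.025) and Mvd (0.044) were the other 3. The share of all probes that keep title numbers apart as Fads1, Fdps and Elovl5 do was not counted. Of the dim arrays, 1 carries the lowest number, 2 the middle one and 0 the highest, and without them the count of 6 was 2. Title number as a block in the sex comparison left the count of genes at an unadjusted p under 0.05 at 5.

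**Figure D4:**
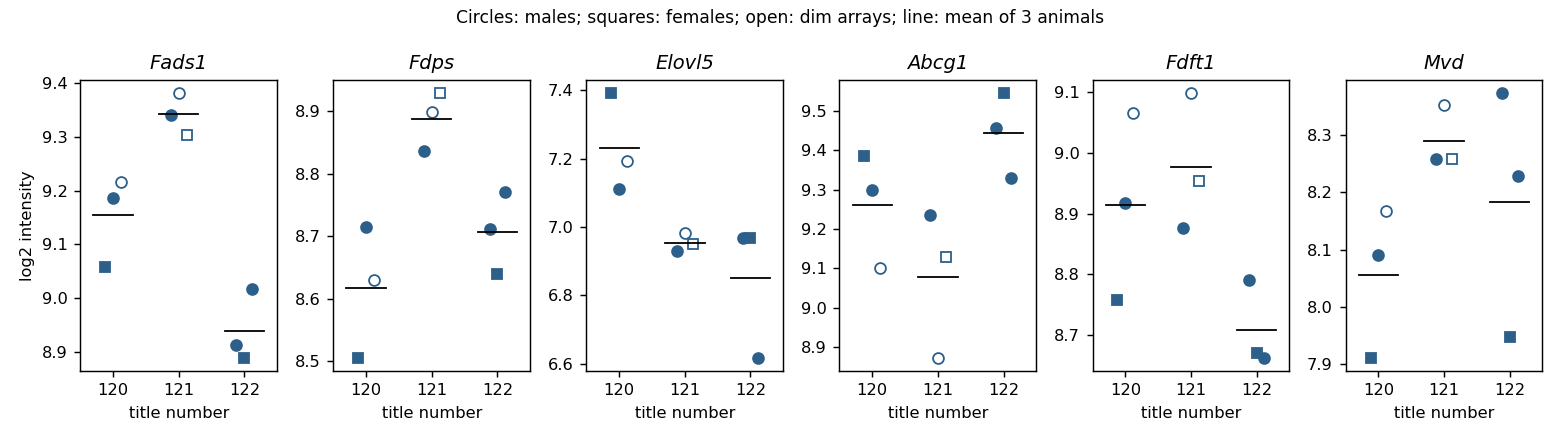
Log2 intensity of the 6 genes with an unadjusted limma p under 0.05 across title numbers, by number on the horizontal axis, with circles for males, squares for females, open symbols for dim arrays and a line at the mean of 3 animals. The values of Fads1 fall into 3 separate levels, highest at the middle number, and those of the other genes overlap between at least 1 pair of numbers.

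The dim arrays stood apart for some lipid genes and not for most. Scd averaged 8.72 ± 0.13 in the 3 dim arrays and 7.91 ± 0.20 in the other 6 (SD), and all 3 dim arrays were above all others. Insig2 (9.47 ± 0.08 and 9.15 ± 0.11), Fdft1 (9.04 ± 0.08 and 8.78 ± 0.10) and Idi1 (8.10 ± 0.06 and 7.91 ± 0.10) were the other 3 genes with this pattern, so 4 of 32 (12.5%), against 7.09% of all probes. Abcg1 was the 1 gene below, at 9.03 ± 0.14 in the dim arrays and 9.38 ± 0.11 in the others, against 7.01% of all probes. With the floor of 64 and in the deposited series table the same 4 genes lay above and Abcg1 below. Without normalization, Idi1 (-0.08), Fdft1 (-0.05) and Insig2 (0.02) no longer differed in this way, and Scd, at a difference of 0.52, overlapped. Scaling to the 75th percentile raised the median probe by 0.14 in the dim arrays. There 3 of 32 genes lay above, Scd (0.71) among them, against 32.4% of all probes. Abcg1 stood 0.45 below, against 7.88% of all probes below, while Idi1, Fdft1 and Insig2 overlapped. Abcg1 lay below in the dim arrays in all 4 scalings and the deposited table, with differences of -0.65 to -0.34. The share of all probes below was 5.81% to 22.6% over these settings. What made the arrays dim was not tested.

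Covariation was described by the mean pairwise Pearson correlation over the 9 animals after the sex means were removed, with no test. For the 13 measured mevalonate and sterol genes it was 0.15, and 51 of 78 pairs (65.4%) were positive. Over all 32 genes it was 0.08 (283 of 496 pairs, 57.1%), and over all tested named genes 0.0005. The squalene and sterol steps alone gave 0.21, the regulators 0.21, the mevalonate steps 0.06, the polyunsaturated chain genes 0.06, the transport genes 0.05 and the fatty acid synthesis genes 0.0036. Some marker lists gave larger values on the same arrays, 0.69 for myelin, 0.62 for choroid plexus, 0.50 for meningeal fibroblasts and 0.34 for blood. Endothelial markers gave 0.16, astrocyte markers 0.10, microglia markers 0.07 and neuronal markers -0.03. The value for the mevalonate and sterol genes moved with the scaling and the dim arrays: it was 0.44 without normalization, 0.017 after scaling to the 75th percentile and 0.012 without the 3 dim arrays.

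Within the set, the closest pairs joined genes of different roles, as most of the 496 pairs do. Idi1 correlated with Fdft1 at 0.91 and with Insig2 at 0.90, and Fdft1 with Scd at 0.89, and these 4 genes are the ones that stood above in the dim arrays. Mvd correlated with Srebf1 at 0.87 and with Acly at 0.86. Ebp correlated with Npc1 at 0.89, and Npc1 with Ugt8 at 0.85, and each of these 3 had its lowest male value in male 5. The 3 lowest values involved Abcg1, at -0.88 with Fads1, -0.87 with Fdft1 and -0.84 with Scd. These are the extremes of 496 pairs over 9 shared arrays. Pmvk went against the other sterol genes, with a mean r of -0.36. With sex means kept, its r with the mean intensity of the array before normalization was 0.68. The other measured mevalonate and sterol genes gave -0.65 (Cyp51) to 0.21 (Dhcr7). The part of array intensity in these correlations was not tested.

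**Figure D5:**
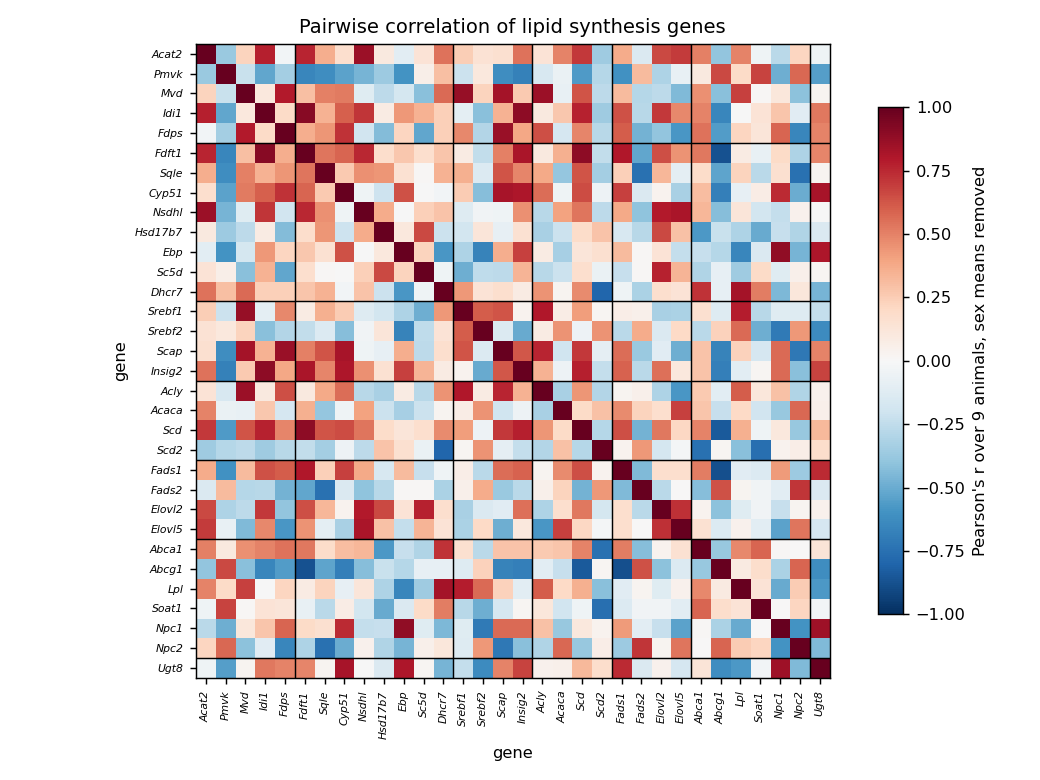
Pearson correlation over 9 animals, sex means removed, for every pair of the 32 genes, in the same role order on both axes. The mevalonate and sterol block at the upper left is mixed in sign, with 51 of 78 pairs positive, and the rows of Pmvk and Abcg1 are mostly negative against it.

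A further 9 pairs of genes were tested, with a two-sided exact permutation test and adjustment over the 9; 11 other listed pairs lacked a probe. None passed after adjustment. The closest was Ugt8 with the myelin marker Mog, at a Pearson r of 0.90 (n = 9, exact permutation p = 0.0068, adjusted 0.061) and a Spearman rho of 0.80 (exact p = 0.014, adjusted 0.12). Without the 2 animals farthest from the median of Ugt8, female 1 and male 5, r was 0.54 (exact permutation p = 0.21) and rho 0.71 (exact permutation p = 0.088). Without male 5 alone r was 0.60 (exact permutation p = 0.12), and without female 1 alone 0.92, so Pearson's r leaned on male 5. With the sex and title number means removed and male 5 kept, r was 0.96 (permutation of residuals, adjusted p = 0.00077). Residuals from fitted means are not freely exchangeable, so that p is approximate and not exact. Without the 3 dim arrays, male 5 again kept, r was 0.95 (exact permutation, adjusted p = 0.025). Fdft1 with Sqle gave 0.57 (exact permutation p = 0.11), Npc1 with Npc2 gave -0.62 (exact permutation p = 0.076), and Elovl2 with the astrocyte water channel Aqp4 gave 0.50 (exact permutation p = 0.17). Abca1 with Abcg1, a pair switched on together by sterol-sensing nuclear receptors, gave -0.43 (exact permutation p = 0.25), and -0.88 after scaling to the 75th percentile (exact permutation, adjusted p = 0.015). It was 0.07 without normalization, 0.31 with sex and title number means removed and -0.09 without male 4, so its direction was not stable. The remaining 4, Scd2 with Mog (0.35), Cyp51 with Sqle (0.27), Fdps with Idi1 (0.20) and Fads1 with Fads2 (-0.18), had exact permutation p-values of 0.40 to 0.63.

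Of 53 other genes of sterol and fatty acid metabolism on a list, 35 had a tested probe and the other 18 are not analysed here. None of the 35 had an unadjusted p under 0.05 between the sexes, 17 averaged higher in males, and their median difference was -0.01. The smallest p-values between the sexes were those of Acsl3, an acyl-CoA synthetase (-0.23 ± 0.12, SE; limma's unadjusted p = 0.082), Lcat, which esterifies cholesterol on lipoproteins (0.27 ± 0.14; 0.086), and Mbtps2, the protease that releases SREBPs (-0.10 ± 0.06; 0.095). Across title numbers 2 of 35 had an unadjusted limma p under 0.05, Slc25a1, the carrier that exports citrate for fatty acid synthesis (0.014), and Acsl4, an acyl-CoA synthetase (0.048). Apoe, the main lipid carrier made by astrocytes, had 12.72, 13.06 and 13.27 at the lowest, median and highest male, against 12.85, 12.74 and 12.97 in the females. Msmo1, a sterol oxidase between Cyp51 and Nsdhl, had 9.26, 9.81 and 9.92, against 9.76, 9.81 and 9.83 in the females. Neither gene separated the sexes.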

How the data were processed

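Per the labels' protocols, cortex RNA of each animal gave biotin-labelled cRNA for 1 array. The authors deposited 1 linear intensity per probe and array; from the values, these were not normalized between arrays. The deposited series table holds log2 values of 15912 probes, whose correlation with log2 single tables after quantile normalization was at least 0.99996 on each array (column medians of 6.125 to 6.127). Its scale was taken from this match, no centring of genes was seen, and it served as an alternative. The scanner software is not given in the sources used here.

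Intensities were corrected with normexp (offset 50), log2 transformed and quantile-normalized with limma 3.58.1 in R 4.3.3; the offset understates differences of dim probes. With no detection p-values, a probe counted as detected above its array's 25th percentile, and testing took the 18531 probes so detected on 3 arrays or more. Platform annotation given with the data named 10687 probes with 1 gene each and left 11830 unnamed; 10662 identifiers matched a RefSeq table of GRCr8, and 0 names changed. Sexes were compared with lmFit and eBayes, title numbers with limma's F test and sex as covariate, both with Benjamini-Hochberg adjustment across the tested probes. Pairs were tested by exact permutation (scipy 1.17.1). The limma comparisons, the mean pairwise correlation and the exact permutation test of Pearson's r were tested on simulated data. Precision is limited by how many arrays there were.

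The genes, lists and tests were chosen with earlier results of these data known. Values of the 3 females and of the lowest, median and highest male are given for several kinds of genes. These are the 12 with the largest SDs within sex, the 5 smallest p in each comparison, extreme animals and pairs. Fads1 is also given for every male. Of the other pathway genes, those with the 5 largest SDs, the 3 smallest p in each comparison, Msmo1 and Apoe are named. Marker lists were fixed likewise. Alternatives were a floor of 64 without normexp, no normalization, scaling to the 75th percentile, the series table, no filter or detection on all 9 arrays, an intensity trend, array weights, a title number block, Spearman correlation, sex means kept, title number means removed, and leaving out each animal or the 3 dim arrays.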

Additional observations from a re-analysis of the deposited data

Results flagged for a closer look

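In 4 of the 32 genes (12.5%) the lowest or highest of the 6 males stood apart from the other males by more than the 95% limit of Dixon's test, against 5.40% of all tested probes; chance alone gives about 1 in 20. In male 5, Lpl was the highest value at 9.39 with the next male at 8.41, Npc1 the lowest at 6.87 with the next at 7.09, and Ugt8 the lowest at 8.50 with the next at 9.31. In male 3, Sqle was the lowest at 8.70 with the next at 8.78, in a gene whose males otherwise lay within 8.78 to 8.82. Myelin markers were lowest in male 5 and choroid plexus markers highest in male 3 (mean deviations of -1.04 and 1.67); their part in these values was not tested.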

How the results depend on the processing

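No paired analysis was possible because the replicate numbers are names in order of record; title number, of unstated meaning, was used as a block in the sex comparison, with 5 genes of the set at an unadjusted limma p under 0.05 as without it. Leaving out 1 animal turned the sign of the sex difference in 15 of the 32 genes, none of them among those 5. In every setting run, leaving out any animal included, 0 genes of the set passed the adjusted test in either comparison, and 0 probes passed between the sexes. Probes passing across title numbers were 0, with 3 without the dim arrays and 0 to 1 when animals were left out (1 without male 4). Genes of the set at an unadjusted limma p under 0.05 between the sexes (5) were 3 with the floor of 64, 1 without normalization, 3 after scaling to the 75th percentile, 2 with an intensity trend and 1 to 6 when animals were left out (2 without female 1, 3 without males 3 or 5, 1 without female 3). All probes at that threshold (439) were 214 with the floor, 162 after scaling, 259 on all 9 arrays, 690 without the dim arrays, 679 with array weights and 288 to 720 when animals were left out (288 without female 1, 720 without female 2). Across title numbers, genes of the set (6) were 3 with the floor, 1 without normalization, 2 without the dim arrays and 3 to 9 when animals were left out (3 without male 4 or female 2). All probes (1772) were 918, 1120, 962 and 1149 to 2502 in the same settings. The count of 24 genes higher in males was 19 to 25 when animals were left out, and their median difference (0.04) was 0.11 without normalization. The mean pairwise correlation of the mevalonate and sterol genes (0.15) was 0.44 without normalization, 0.017 after scaling, 0.012 without the dim arrays, 0.26 with sex means kept and 0.23 with title number means removed; leaving out animals gave 0.10 to 0.19. That of all 32 genes (0.08) was 0.34 without normalization. The median SD (0.14) was 0.10 without the dim arrays. Genes with all dim arrays above (4) or below (1) were 0 and 6 without normalization, where 0.89% of all probes lay above and 22.6% below, an alternative chosen after seeing the data. Pairs passing the exact permutation test (0) were 1 without normalization, 2 after scaling, 1 with sex means removed, 1 with sex and title number means removed, 1 without the dim arrays, and 0 to 1 when animals were left out (1 without male 4). Where means were removed, the pair test permuted residuals and is approximate rather than exact. The causes were not tested. With 3 females, differences of the size named here could not be told from the spread between animals.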

Other observations

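Among genes of lipid handling outside the set, Cyp27a1, a sterol hydroxylase that starts cholesterol breakdown, had the largest SD within sex, 0.29, with 7.00, 7.60 and 8.02 at the lowest, median and highest male, against 7.80, 7.70 and 7.72 in the females. Acat1, the mitochondrial thiolase (SD 0.28), Thrsp, a lipogenic nuclear protein (0.26), Lcat (0.24) and Acsl4 (0.23) followed. The lowest Cyp27a1 value came from male 5. In that animal Cers2, the ceramide synthase of very long chains in myelin lipids, was also lowest, at 8.45, with a male median of 8.90 and all females at 8.80 or above. Fabp7, a fatty acid binding protein of astrocytes and their precursors, was highest there, at 11.07, with a male median of 10.58 and female values of 10.43, 10.37 and 10.46. Cers2 and Fabp7 were chosen after their values were seen.

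The mean deviation of the 13 mevalonate and sterol genes from their medians was -0.07 to 0.10 in males and -0.12 to -0.01 in females. Correlations with this mean deviation were taken after the sex means were removed from it and from each gene. Of 10295 named genes outside the set, the 10 that followed it most closely over the 9 animals were Gria2, an AMPA receptor subunit (r = 0.98), Rhoq, Ptprr, Son, Reck, Orc4, Wdr37, Dr1, Gnai3 and Zfand6 (0.96 to 0.98), as a description with no test. Of the 35 other lipid genes 22 had a positive r with it (62.9%, against 49.2% of all named genes), with a median of 0.39 against -0.01. Chosen after their values were seen, Me1, the malic enzyme that supplies NADPH for lipid synthesis, gave 0.92, Acsl1 0.88 and Thrsp 0.87, while Ugcg, which makes glucosylceramide, gave -0.93. All these values share the same 9 arrays and their intensities. Among males the mean deviation was highest in male 4 (0.10) and male 2 (0.08), and among females in female 2 (-0.01). These are the 3 dim arrays. Me1 and Acsl1 lay above in all 3 dim arrays and Ugcg below, while Thrsp overlapped. Of the 35 genes, 4 lay above (11.4%) and 1 below (2.86%), against 7.09% and 7.01% of all probes. The part of the dim arrays in these correlations was not tested.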
